A study of Mus musculus with 14 samples.

Results

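*Smn1*, *Gemin4*, *Gemin5*, *Gemin6*, *Gemin7*, *Strap* and *Ighmbp2* were chosen by name, as genes of the SMN complex and of related motoneuron (MN) disease. All 7 were found among the 19215 genes with an RNA value in both whole spinal cord (WSC) RNA-seq libraries, and all 7 among the 22380 protein-coding genes on which NOVA CLIP reads were counted. Of 13189 cassette exons with counts in both RNA libraries, 6 belonged to 4 of these genes. *Gemin4*, *Gemin6* and *Strap* had no cassette exon among them.

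The survival motor neuron protein, encoded by *Smn1*, is the core of a complex that loads Sm proteins onto small nuclear RNAs to build the snRNPs of the spliceosome. Loss of SMN causes spinal muscular atrophy, in which spinal motoneurons degenerate. The Gemin proteins and STRAP (also called unrip) are partners of SMN in that complex, whereas IGHMBP2 is a helicase of another pathway whose loss causes a spinal muscular atrophy with respiratory distress. NOVA1 and NOVA2 are neuronal RNA-binding proteins that recognise YCAY (Y is C or T) and regulate splicing. CLIP sequences the RNA crosslinked to such a protein.

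Motoneuron CLIP was done with anti-GFP antibodies on pooled spinal cords of 3-month-old C57BL/6 mice hemizygous for Chat:GFP-Nova, from line #6 (n = 4 libraries) and line #17 (n = 4). Both lines carry a bacterial artificial chromosome in which the *Chat* promoter, active in cholinergic neurons, drives GFP-tagged NOVA2, and both keep their endogenous NOVA. WSC CLIP used human anti-Nova serum on endogenous NOVA of 3-month-old wild-type C57BL/6 spinal cords (n = 4). WSC RNA-seq was done on poly(A) RNA from 1 male and 1 female B6/SJL mouse of 12 weeks carrying Tg(SOD1)2Gur/J, a transgene for wild-type human SOD1. The RNA and CLIP libraries therefore came from different mice, and no RNA level of purified motoneurons was analysed here. All WSC CLIP libraries had a long 5′ linker, as did replicates 3 and 4 of each MN line, whereas replicates 1 and 2 had a short one. MN and WSC CLIP differed at once in cell type, antibody, NOVA protein and number of cords per library, and in part in linker. Binding, RNA level and number of cells therefore cannot be told apart in any MN to WSC difference below.

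The MN libraries held 65961 to 871804 unique CLIP reads and the WSC libraries 2213104 to 6095995. Exons took 33.4% to 46.4% of the reads on genes in MN libraries and 60.9% to 66.2% in WSC libraries. Of the marker genes tested, 3 of 3 for motoneurons were higher in MN CLIP, with *Chat* at a log2 fold of 3.08 (edgeR adjusted p = 2.56e-16), and 6 of 6 for inhibitory interneurons were lower, with *Slc6a5* at -4.35 (adjusted p = 2.18e-18). All 3 tested astrocyte markers were lower but did not pass on exon reads alone (log2 folds of -0.45 to -0.03, adjusted p from 0.0112 to 0.873), and the Schwann cell marker *Pmp22* was higher (1.79). In WSC RNA, muscle markers reached at most 0.587 RPKM and the liver marker *Alb* was listed at 0.

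The sequences under the highest WSC CLIP coverage are shown for the 4 genes with a maximum of at least 10 reads, since they place NOVA reads in these transcripts. Each is 29 nt of mm9, 5′ to 3′ on the strand of the gene and centred on the maximum, with each match to YCAY in capitals, where it reads TCAT, where it ends in C instead as TCAC, where it begins with C as CCAT, and where it does both as CCAC.
*Strap*, chr6:137699107-137699135, plus strand, end of the coding sequence in the last exon: TCATcaactcctgaagttaaggcctgagc
*Gemin5*, chr11:57981302-57981330, minus strand, coding part of exon 2 of 28: tTCACtttttcTCATCACcctggacaata
*Gemin7*, chr7:20150619-20150647, minus strand, at the end of the coding sequence in exon 2 of 2: cctattctttcaagctgtaaaactgtctg
*Smn1*, chr13:100907411-100907439, plus strand, 3′ untranslated region in the last exon: actcttggctaagtggtgtcgTCATcagc

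*Gemin5* had 3 of these 4-letter matches in its 29 nt, 2 of them overlapping, and *Gemin7* had none. In the wider window of 50 nt on each side of the maximum, *Strap*, *Gemin5* and *Smn1* each had 4 matches on the gene's strand and *Gemin7* had 2. At the WSC maxima of the 9590 genes with at least 10 reads at the maximum, the median was 3, 46.9% had at least 4 and 90.5% had at least 2. The 4 genes were therefore within the usual range of NOVA-covered positions. A match describes letters in the window and does not show a binding site.

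RNA levels of the 7 genes were compared to see how much RNA each has in the spinal cord. They are given in RPKM, which is reads scaled to the length of a gene's exons and to the library's reads on genes. This allows levels of genes of different length to be set side by side. *Strap* had the highest RNA level, with 62.2 RPKM in the male and 71.2 RPKM in the female library (mean 66.7 ± 6.36, SD, n = 2), above 95.1% of all genes. *Gemin7*, a small subunit that contacts Sm proteins through GEMIN6, followed with 19.5 and 20.9 RPKM (20.2 ± 1.04). *Smn1* itself was at 6.63 and 6.997 RPKM (6.82 ± 0.256). These 3 levels were apart from each other in both libraries.

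*Gemin5*, which encodes the subunit that recognises small nuclear RNAs, was at 5.52 RPKM in the male and 5.15 RPKM in the female library (5.33 ± 0.261), below *Smn1* in both. *Ighmbp2* was at 3.20 and 3.38 RPKM (3.29 ± 0.131). *Gemin4* was at 3.53 and 2.62 RPKM (3.08 ± 0.648), and *Gemin6* at 3.56 and 2.23 RPKM (2.89 ± 0.936). The last 3 overlapped, so no order among *Ighmbp2*, *Gemin4* and *Gemin6* was seen, and they lay near the median of all 19215 genes (3.46 RPKM).

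**Figure D1:**
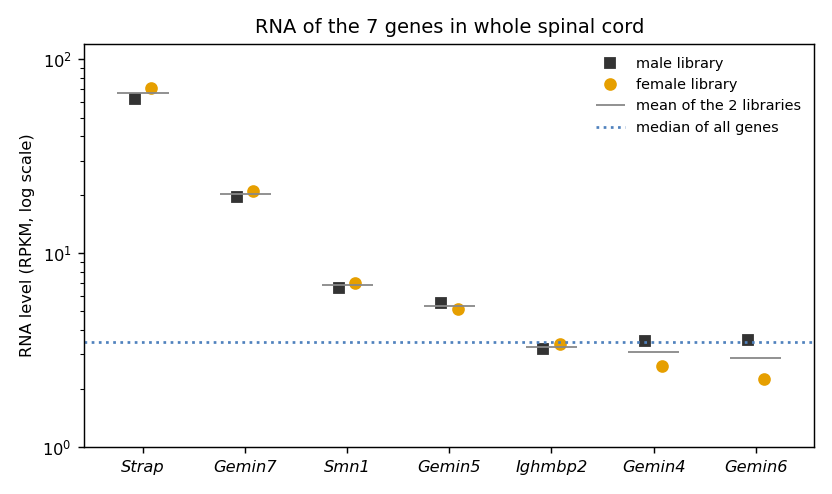
RNA level (RPKM, log scale) of the 7 genes in WSC, with a square for the male and a circle for the female library, a short line for their mean and a dotted line for the median of all genes (3.46 RPKM). *Strap* and *Gemin7* stand well above the other 5 genes, and *Ighmbp2*, *Gemin4* and *Gemin6* overlap.

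*Gemin4* and *Gemin6* were lower in the female than in the male library, with ratios of 0.741 (95% counting interval 0.666 to 0.824) and 0.628 (0.513 to 0.765). The other 5 genes had ratios between 0.933 and 1.14 and stayed between 4/5 and 5/4. Among the 13290 genes with at least 100 reads in all, 19.9% had a ratio below 4/5 or above 5/4, so 2 of 7 is near that background. With 1 library of each sex, the ratio compares 2 libraries and not the sexes, and its interval covers counting error only.

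For the 6 cassette exons, inclusion rates were read from junctions alone. Reads of the inclusion junctions were averaged and set against those of the skipping junction to give the rate in percent. *Smn1* had 2 cassette exons, and most junction reads skipped both. The exon of 113 nt (chr13:100895774-100895886, an annotated exon) had no inclusion read against 45 skipping reads in the male library and none against 29 in the female library, which gives upper 95% Wilson limits of 7.87% and 11.7%. The exon of 108 nt (chr13:100903210-100903317, not an exon of the annotation used) had no inclusion junction read against 19 skipping reads in the male library. In the female library it had 2 reads on its first inclusion junction, none on its second and 10 skipping reads, a rate of 9.09% (1.62% to 37.7%). With exon body reads counted as inclusion its rates were 13.6% and 16.7%, so the 108-nt exon is known less precisely.

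The ends of these *Smn1* exons are shown because the skipping result concerns them, with 10 nt of exon in capitals and 20 nt of intron in lower case, 5′ to 3′ on the plus strand of mm9. All 4 carry ag before or gt after the exon.
Start of the 113-nt exon, chr13:100895754-100895783: gctttgccctttgtcctcagGGGAGCCCTG
End of the 113-nt exon, chr13:100895877-100895906: AATCTCAGGGgtaatcttattgattgcagc
Start of the 108-nt exon, chr13:100903190-100903219: acactgactcgtttggccagGTTTCCCAGG
End of the 108-nt exon, chr13:100903308-100903337: TGTTTCGTTGgtaagcttgatctacattct

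A 145-nt exon of *Gemin7* (chr7:20155087-20155231, annotated) was also skipped. It had 1 inclusion junction read against 104 skipping reads in the male library, a rate of 0.478% (Wilson 0.05% to 4.42%), and none against 126 in the female library (upper limit 2.96%). The other *Gemin7* exon, of 153 nt (chr7:20156778-20156930), had 3 junction reads in the male and 0 in the female library, too few to give a rate for both.

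By contrast, the 487-nt exon of *Gemin5* (chr11:57938434-57938920) had 47 and 27 inclusion junction reads and no skipping read in the male and female libraries, with lower Wilson limits of 86.0% and 77.8%. The 98-nt exon of *Ighmbp2* (chr19:3279533-3279630) had 56 and 26 inclusion junction reads, likewise with none skipping (lower limits 87.9% and 77.2%). The 5 exons with at least 10 junction reads in each library were tested between the libraries, with exon body reads counted as inclusion. For the 113-nt *Smn1* exon and these *Gemin5* and *Ighmbp2* exons, reads were all skipping or all inclusion in both libraries. The test could therefore not find a difference for them. The 108-nt *Smn1* and 145-nt *Gemin7* exons were not called (two-sided Fisher's exact test, adjusted p = 1 for each). Over all 9396 exons with that coverage, 4.26% passed FDR 0.1. Rates above 95% in both libraries were found for 43.3% of these exons and rates under 5% for 14.2%. CLIP reads near the 6 exons were few: within 200 nt of them there were 0 to 3 WSC reads and no MN read.

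NOVA CLIP was compared between MN and WSC libraries to see on which of the 7 transcripts the level of NOVA reads differs between them. *Strap*, the only one of the 7 with enough reads to be tested across genes, had fewer NOVA CLIP reads in MNs. The 4 line #6 libraries held 40.8, 29.4, 25.04 and 46.0 *Strap* RPM (CLIP reads in the gene scaled to 1000000 reads on genes), and the 4 line #17 libraries 20.01, 40.7, 0 and 41.2. The WSC libraries held 131, 104.6, 108 and 130.5 RPM. Every WSC library was above every MN library. The line #17 library without a *Strap* read was shallow, and 0 of its 65926 reads on genes still allows up to 45.5 RPM.

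The log2 fold of *Strap*, MN minus WSC, was -1.68 (SE 0.209, edgeR quasi-likelihood test, adjusted p = 1.34e-07), that is 3.21-fold higher in WSC. Of the 4536 genes tested, 29.1% were lower in MNs and 27.5% higher at FDR 0.01, and 4.03% had a lower fold than *Strap*. Against WSC, line #6 alone gave -1.75 and line #17 alone -1.58. Line #6 minus line #17, *Strap* had a log2 fold of -0.14 (SE 0.451, adjusted p = 1.00), and 0% of genes passed FDR 0.01 by edgeR (215 had an unadjusted p under 0.05). With the long linker libraries alone the fold was -1.70.

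The share of exonic reads, which was lower in all MN libraries, moved with this result. Counted on exons only, *Strap* had a log2 fold of -1.03 (SE 0.225, adjusted p = 4.18e-04), 2.05-fold higher in WSC, where 24.1% of 2249 genes were lower in MNs. In introns *Strap* had 6 MN and 36 WSC reads, a ratio of shares of 0.902 (95% counting interval 0.311 to 2.16), so an intronic difference was not detectable at this depth. The fit of intron reads over all genes with a read gave a log2 fold of -0.37 (SE 0.641, edgeR adjusted p = 0.787).

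**Figure D2:**
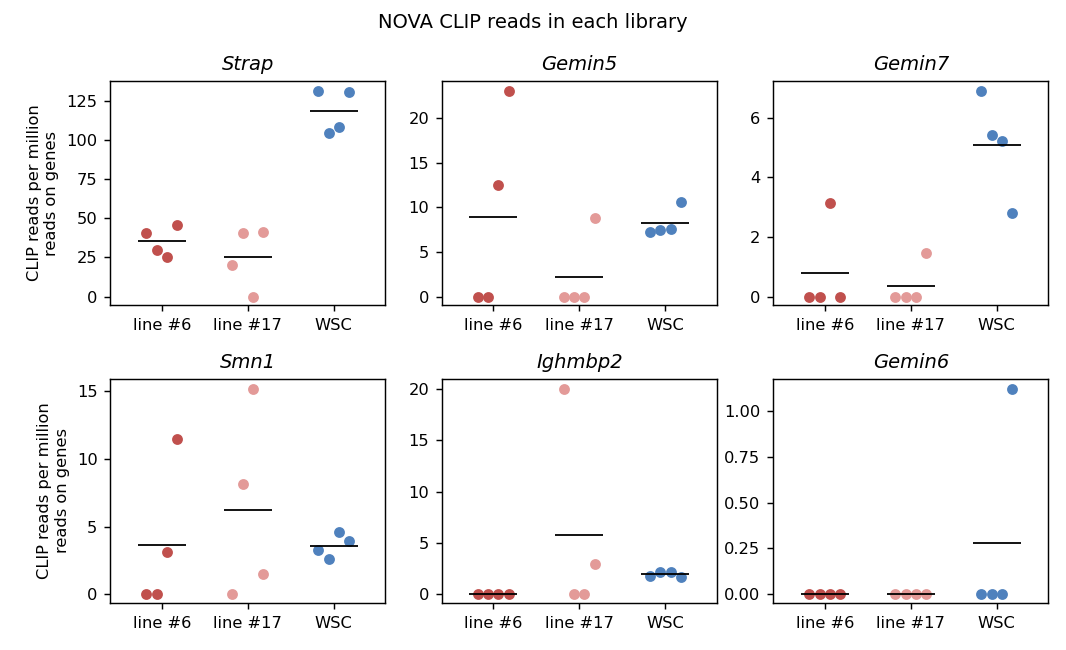
NOVA CLIP level (RPM) in each library (points) for 6 of the genes, in MN lines #6 and #17 and in WSC, with a line at the mean of the 4 libraries of a group. For *Strap* the WSC libraries lie at 104.6 to 131 and the MN libraries at 0 to 46.0, whereas many MN libraries are at 0 for the other genes.

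Most *Strap* reads lay in its last exon. The 3′ untranslated region held 1242 of 1610 WSC reads (77.1%, exact 95% interval 75.0% to 79.2%) and 42 of 55 MN reads (76.4%, 63.0% to 86.8%). Coding sequence held 20.6% of WSC and 10.9% of MN reads. Introns held 2.24% of WSC and 10.9% of MN reads, against 36.8% and 61.8% over all genes. Reads on *Strap* were thus mostly exonic, and mostly in the 3′ untranslated region, in both.

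Within the last exon, WSC reads piled up around the end of the coding sequence shown above. The position with the most WSC reads, 9 nt before the last coding base, was covered by 430 of 1610 WSC reads (26.7%, 24.6% to 28.9%) and by 5 of 55 MN reads (9.09%, 3.02% to 19.95%). In single libraries the share was 24.9%, 29.8%, 26.4% and 23.2% in WSC. It was at most 12.5% in the 7 MN libraries with a *Strap* read, of which the deepest had 28 such reads. The WSC reads had 1.82 reads per start position on *Strap*, against 1.496 over all genes, and the MN reads 1.02 against 1.06. Keeping 1 read per start position in each library left 887 WSC and 54 MN reads and a log2 fold of -1.21 (SE 0.224, adjusted p = 4.82e-05). It also lowered the WSC share at the same position to 119 of 887 reads (13.4%, 11.2% to 15.8%), against 4 of 54 MN reads (7.41%, 2.06% to 17.9%), so the intervals overlapped. The WSC maximum then lay 33 nt past the last coding base, with 122 reads (13.8%), where MNs had 6 of 54 (11.1%). The gap between MNs and WSC at the end of the coding sequence was thus seen only with all reads counted. Keeping 1 read per start also caps how many reads can cover a position, which cuts the deeper WSC libraries more. Whether repeated reads account for the gap or for the smaller fold was therefore not tested.

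**Figure D3:**
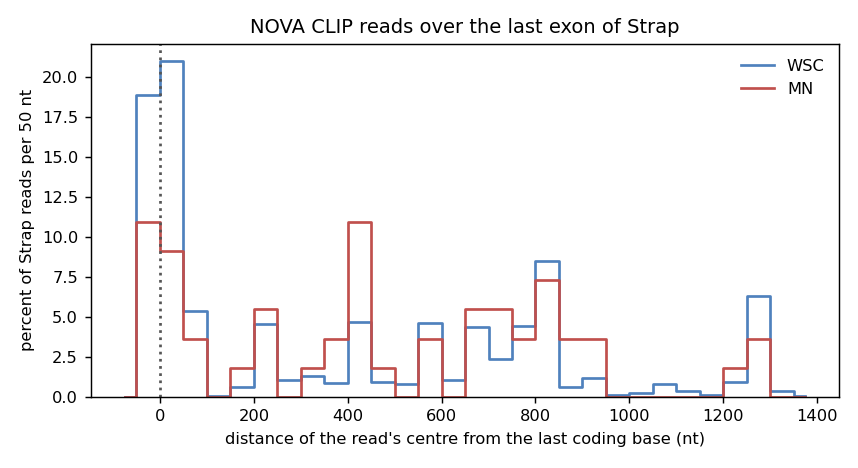
Percent of all *Strap* CLIP reads whose centre falls in each 50-nt step of the last exon, against distance from the last coding base (dotted line), for pooled WSC (1610 reads) and pooled MN (55 reads). The 50 nt before the last coding base hold 18.9% of WSC and 10.9% of MN reads, and the next 50-nt step 21.0% and 9.09%. Most of the other reads lie further along the 3′ untranslated region in both.

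*Gemin5* came second in CLIP reads. Line #6 libraries held 0, 0, 4 and 4 reads, line #17 libraries 0, 0, 0 and 6, and WSC libraries 20, 37, 35 and 19. Scaled to all reads on genes, the pooled MN share was 1.15 times the WSC share (95% counting interval 0.606 to 2.00), so no difference over the whole gene was detectable. The reads lay in different parts of the gene. Introns held 13 of 14 MN reads (92.9%, exact 66.1% to 99.8%) and 33 of 111 WSC reads (29.7%, 21.4% to 39.1%). In WSC, 63 reads were in coding exons, 26 of them over the exon 2 maximum, which had reads from all 4 WSC libraries and none from MNs. All genes together showed the same direction (61.8% intronic in MN, 36.8% in WSC). Scaled to exon reads alone, the *Gemin5* ratio was 0.192 (0.00481 to 1.10), and to intron reads alone 2.13 (1.03 to 4.16). Fits over all genes with a read called neither at FDR 0.01 (edgeR adjusted p = 0.0632 on exons and 0.328 on introns). The part of the general shift in the *Gemin5* values was not tested.

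*Gemin7* had 1 read in 1 library of line #6, 1 in 1 library of line #17 and 19, 27, 24 and 5 reads in the WSC libraries. The pooled MN share was 0.242 times that in WSC (0.0288 to 0.906). In the fit of all 16430 genes that had a read, 22.5% passed FDR 0.01 and the median log2 fold was -0.47. There *Gemin7* had a log2 fold of -2.06 (SE 0.794) and missed that threshold (edgeR adjusted p = 0.0332). The *Gemin7* fold was -4.07 without line #6 replicate 3 and -3.87 without line #17 replicate 4, the only MN libraries with a read. With 10 kb downstream added it was -0.60 (edgeR adjusted p = 0.332), in a count that kept reads inside other genes' spans. In WSC, 37 of the 75 reads on *Gemin7* itself were in the 3′ untranslated region and 28 in coding sequence.

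*Smn1* reads were sparse. Line #6 libraries held 0, 0, 1 and 2, line #17 libraries 0, 1, 1 and 1, and WSC libraries 9, 13, 21 and 7. The pooled MN share was 1.09 times the WSC share (0.382 to 2.54). In WSC the 3′ untranslated region held 18 of 50 reads, coding exons 12 and introns 15, whereas 5 of 6 MN reads were intronic. The maximum in the last exon had 14 reads from 3 WSC libraries (1, 5 and 8) and none from MNs.

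*Ighmbp2* had 3 MN reads, of which 1 came from line #17 replicate 1 and 2 from replicate 4, and 5, 11, 10 and 3 reads in the WSC libraries, a ratio of shares of 0.939 (0.183 to 3.03). *Gemin6* had 2 reads in WSC replicate 4 and none elsewhere. *Gemin4* lies within *Glod4* on the same strand, so its reads could not be assigned to 1 gene. Counted regardless of the overlap, 3, 7, 6 and 3 reads of the WSC libraries and 2 MN reads fell in its span. These 3 genes had too few assignable reads to compare MNs with WSC.

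**Figure D4:**
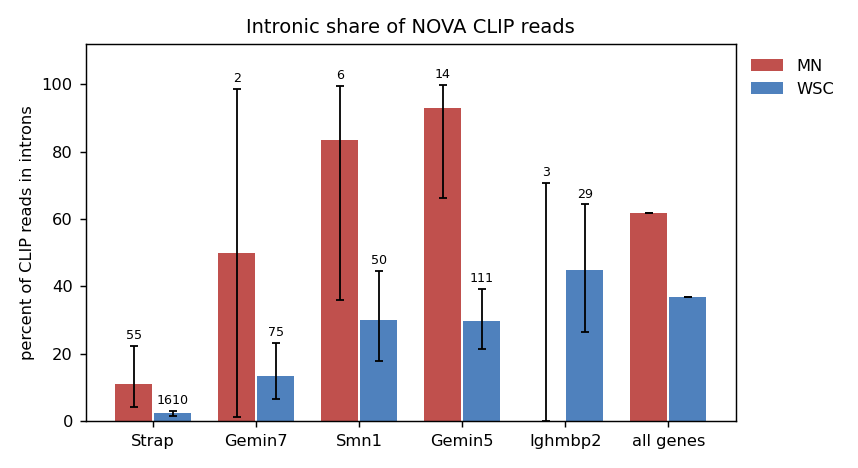
Percent of CLIP reads in introns for 5 of the genes and for all genes, in pooled MN and pooled WSC libraries, with exact 95% binomial intervals (counting error only) and the number of reads above each bar. *Strap* is the least intronic in WSC (2.24%), and *Gemin5* has 92.9% in MN against 29.7% in WSC.

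Set against RNA, *Strap* was also the gene with the densest WSC CLIP reads among the 6 whose reads could be assigned. Exonic CLIP RPM per kilobase of exon, divided by RPKM, gave 0.562 for *Strap*. This was above 73.4% of the 10886 genes that had at least 1 RPKM and for which this ratio was computed. *Gemin5* (0.166), *Gemin7* (0.142) and *Smn1* (0.139) were below the median of these genes (0.216), and *Ighmbp2* (0.0625) and *Gemin6* (0.0339) lower still. RNA and CLIP came from mice of different strain and genotype, so these ratios are descriptive.

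Over the 12 CLIP libraries, the genes whose log2 CLIP level was most like that of *Strap* were *Ttl* (Pearson's r = 0.969), *Klf9* (0.961), *2610203C20Rik* (0.959), *Leprotl1* (0.956) and *Ccni* (0.954), among 4535 genes. The libraries share groups and depth, and what these correlations rest on was not tested.

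Other genes of the SMN pathway and of motor neuron disease were taken from 6 lists of 53 genes, of which 49 had an RNA value and 46 at least 1 RPKM. In CLIP, 17 were tested, of which 2 were higher in MNs, 4 lower and 11 not called, with a median log2 fold of -0.30 against -0.02 for all genes tested. The shares of 11.8% higher and 23.5% lower stand beside the 27.5% and 29.1% of all genes.

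The remaining SMN complex genes lay below *Smn1* in RNA, from *Gemin8* at 2.56 RPKM to the helicase gene *Ddx20* at 4.91 RPKM, and none was tested in CLIP. Sm core genes ranged from *Snrpg* at 3.85 to *Snrpn* at 236 RPKM. Only unambiguously mapped reads were counted. Whether this lowered the values of Sm genes with processed copies, such as *Snrpg*, was not tested. *Snrpn*, the neuronal Sm protein gene, rose in MN CLIP by a log2 fold of 1.24 (SE 0.0886, adjusted p = 7.88e-12), with 480 to 718 RPM in MN and 253 to 281 in WSC libraries. It was the 1 Sm gene tested, and the groups did not overlap.

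Methylosome genes, which methylate Sm proteins, ranged from *Wdr77* (14.6 RPKM) to *Clns1a* (61.2 RPKM). Those of snRNP transport and the cap ranged from *Tgs1* (7.73 RPKM) to *Kpnb1* (48.1 RPKM). The 1 gene tested in each did not pass the threshold. Of the SMN partners, *Igf2bp1* was listed at 0 and *Pfn2*, an actin-binding profilin, was highest at 318 RPKM. *Pfn2* was lower in MN CLIP (log2 fold -0.50, SE 0.108, adjusted p = 2.35e-04), but on exon reads alone its fold was 0.27 and did not pass (adjusted p = 0.0381).

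Among other genes of motor neuron disease, RNA ranged from *Hspb3* (0.078 RPKM) to *Chchd10* (180 RPKM). In CLIP, 10 of 24 were tested, 1 rose and 3 fell. *Slc5a7*, the choline transporter gene and a motoneuron marker, rose by a log2 fold of 2.21 (adjusted p = 1.47e-12). *Dync1h1*, the heavy chain of the dynein motor, was lower at -1.40 (adjusted p = 1.48e-10) and *Uba1*, the ubiquitin-activating enzyme, at -1.17 (adjusted p = 2.04e-06). *Asah1*, encoding acid ceramidase, was lower at -0.63 (adjusted p = 7.28e-04) but had -0.09 on exon reads alone (adjusted p = 0.698).

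**Figure D5:**
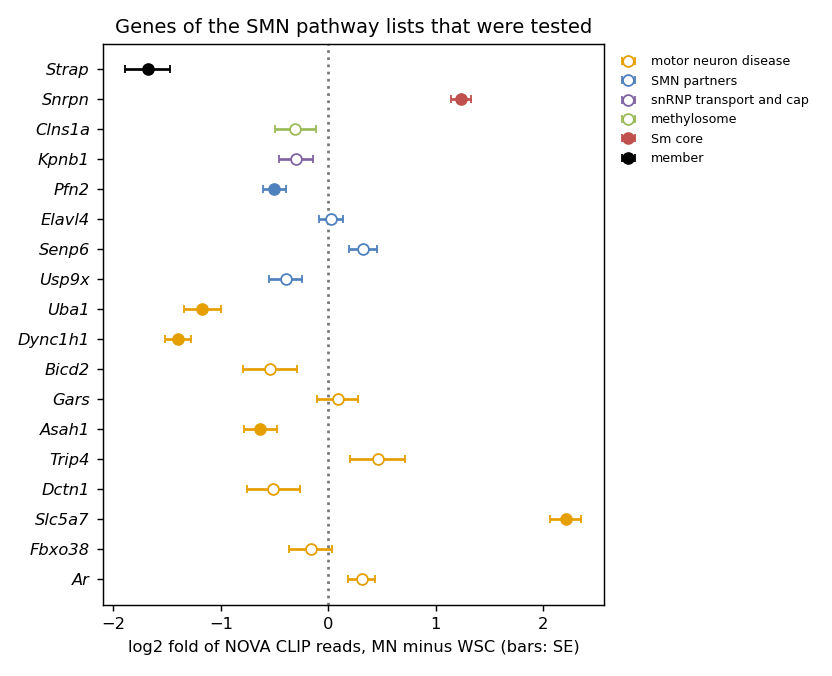
Log2 fold of NOVA CLIP reads, MN minus WSC, with SE bars, for *Strap* (black) and the 17 tested genes of the lists, coloured by list, filled where they passed FDR 0.01 and open where not. *Strap* (-1.68) lies lowest and *Slc5a7* (2.21) highest.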

How the data were processed

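The 12 CLIP and 2 RNA-seq libraries were used. The authors aligned CLIP reads to mm9 with Novoalign and deposited unique reads as BED lines, whose score column was not used. Per the authors' methods, RNA reads were mapped to mm9 with OLego, and the deposited tables hold read counts and RPKM per gene and counts per cassette exon. The deposited inclusion rates were recomputed from junction counts.

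CLIP reads were counted on GENCODE vM1 gene spans (NCBIM37) by read centre and strand, leaving out reads in more than 1 protein-coding span. Counts were filtered (filterByExpr), scaled by TMM and fitted with edgeR 4.0.16 (quasi-likelihood, Benjamini-Hochberg, FDR 0.01). Sparse members were given as pooled shares with exact 95% intervals, which cover counting error only, since no molecular identifiers were used. Exons with at least 10 junction reads in each library were tested by Fisher's exact test (FDR 0.1), with exon body reads counted as inclusion. The scripts were tested on simulated data. The CLIP replicates are labelled biological replicates.

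All 7 members were named, and list genes when called or highest or lowest by RPKM. Members and lists were chosen with earlier results of these data known. *Snrpf*, *Phax*, *Ncbp1* and *Garem* RNA was not analysed here. A sequence and 2 genes of the lists are not reported here.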

Additional observations from a re-analysis of the deposited data

Results flagged for a closer look

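In groups of 4 libraries, 6 values of CLIP level (RPM) stood apart from the rest of their group by Dixon's criterion, among 15 groups examined. Chance alone marks about 1 group in 20, and groups in which all but 1 library are at 0 are always marked. *Gemin5* had 8.82 RPM (6 reads) in line #17 replicate 4, with the other 3 libraries at 0, and 10.6 (19 reads) in WSC replicate 4, with the next at 7.62. *Gemin6* had 1.12 (2 reads) in WSC replicate 4 and 0 in the others. *Gemin7* had 3.13 (1 read) in line #6 replicate 3 and 1.47 (1 read) in line #17 replicate 4, each with the other 3 libraries of its line at 0. *Ighmbp2* had 20.01 (1 read) in line #17 replicate 1, the shallowest library, with the next at 2.94.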

How the results depend on the processing

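*Strap* remained lower in MNs at FDR 0.01 in every alternative in which it passed the filter, and without the filter on all reads (log2 fold -1.03 on exon reads to -1.88 without the filter, -1.96 to -1.53 leaving out 1 library, adjusted p at most 4.18e-04). On intron reads it did not pass the filter, and without the filter it was not called (-0.37, adjusted p = 0.787). Genes higher and lower in MNs numbered 1248 and 1318, against 523 and 542 on exon reads and 347 and 398 on intron reads, where fewer genes were tested, and 1047 and 2656 without the filter. Leaving out 1 library gave 905 to 1363 and 949 to 1535. A replicate block gave 986 and 1094 and *Strap* at -1.76. Same-numbered libraries of the MN lines correlated at 0.05 to 0.20 and with WSC at -0.07 to 0.03, so the numbers were not taken as pairing. Line #6 against #17 gave 0 calls, and 0 to 3 leaving out 1 library, with 3 without line #17 replicate 4. For genes too sparse for the filter, alternatives chosen after seeing the data changed the sign with no call. *Smn1* (0.02) became -0.0691 with the block, -0.14 for line #17, -2.37 on exons, -0.26 with 1 read per start and -0.53 to 0.61 leaving out 1 library. *Gemin5* (0.05) became -0.30, -0.32, -3.51, -0.14 and -2.98 (without line #17 replicate 4) to 0.21 in the same order, and -0.0556 in the tagwise exact test. *Ighmbp2* (-1.97) became 0.22 in DESeq2 and 0.63 for line #17. *Gemin7* (-2.06) kept its sign and was not called, at -4.07 to -1.85 leaving out 1 library and -0.60 with 10 kb downstream. Matches per 100 nt at the maximum moved from 3.96 to 1.98 for *Strap* with 1 read per start, and to 5.88 for *Gemin5* in 51 nt. The causes were not tested. Few MN reads limit the comparison for all of the 7 genes but *Strap*.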

Other observations

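Reads past the annotated ends were counted as well, including those inside spans of other genes on the same strand. Which gene the added reads belong to was not tested. With 10 kb downstream added, *Ighmbp2* went from 29 to 120 WSC reads and from 3 to 10 MN reads, and *Gemin7* from 75 to 176 WSC and from 2 to 13 MN reads. *Smn1* (50 to 52 WSC reads) gained almost none. Reads on the opposite strand numbered at most 5 in WSC and 1 in MN for any of the 7 genes.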
